A study of Mus musculus with 2 samples.

Results

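The regions described here are wide stretches of chromatin that the peak caller CCAT listed for estrogen receptor alpha (ERα) in the mouse mammary gland and that lie far from every peak of a second caller, MACS. A region was taken when it was at least 1200 bp wide and had no MACS peak within 10 kb, edge to edge, on chromosomes 1 to 19. Of the 52243 distinct CCAT regions on these chromosomes, 1300 met this rule, which is 2.49%. They covered 2.06 Mb, or 5.15% of the length of all CCAT regions there. The regions were chosen by measured values, their width and their distance to MACS peaks, so both are given as descriptions.

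ERα is a nuclear receptor that binds DNA when estrogen is present, and it acts in luminal cells of the mammary epithelium while the ducts grow in puberty. Chromatin immunoprecipitation and sequencing (ChIP-seq) enriches the DNA bound by a protein, and a library of whole cell extract serves as the control for stretches that give many reads without enrichment. MACS looks for narrow peaks above a local background. CCAT estimates the noise from the control library and gives each region a false discovery rate (FDR).

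The series held 1 ERα ChIP library, pooled from 6 mice, and 1 library of whole cell extract. Both came from pads of the mammary gland at an age of 5 to 6 weeks, from mice backcrossed to the C57BL/6J background, and the labels give no treatment or modified allele. Whole pads hold fat and stroma beside epithelium, and the lists carry no measure of the cell types. With 1 library per group there is no replicate error and no test between conditions, so every comparison below is a description of these lists. The lists hold no read counts, so the depth is unknown. Positions refer to mm9 and count from base 1, and regions are named by position because neither an mm9 sequence nor an mm9 gene annotation was used here.

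Most of the 1300 regions were close to the minimum width. The median was 1400 bp, with an interquartile range of 1250 to 1600 bp, and 128 regions reached 2000 bp and 42 reached 3000 bp. At the threshold, 198 far regions were exactly 1200 bp wide and 273 were 1150 bp wide, the next step of the 50 bp grid on which CCAT placed its regions. An FDR below 1 was carried by 18 of the former (9.09%, 95% Wilson interval 5.83 to 13.9%) and by 34 of the latter (12.5%, 9.05 to 16.9%). The minimum width therefore divides regions whose FDR intervals overlap. Wilson intervals here cover only counting error, and adjacent regions depend on each other.

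Nearly all of the wide far regions had the highest FDR. It was 1 for 1206 of the 1300 and below 1 for 94, or 7.23% (5.95 to 8.77%), beside a background of 1.61% over all 52243 regions. The FDR and the distance rule come from the same comparison of ChIP with extract, so nothing is read from this difference. Among the 616 regions of at least 1200 bp that had a MACS peak within 10 kb, 560 of them overlapping it, 512 had an FDR below 1 (83.1%, 79.96 to 85.9%). Among the 49561 narrower far regions 80 did so (0.161%, 0.130 to 0.201%). An FDR of at most 5% was reached by 3 of the 1300, beside a background of 0.454%, and by 231 of the 616.

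The values by width are given for the same regions. Since MACS peaks were called from the same libraries, the distance rule itself separates far from near regions by FDR, and only the course along width within each set is described. From 1200 to 1950 bp the share of far regions with an FDR below 1 lay between 3.19% and 9.09% in each of 5 width classes. It was 13.95% (8.17 to 22.8%) for the 86 regions of 2000 to 2950 bp. For the 42 of 3000 bp or more it was 26.2% (15.3 to 41.1%), beside a background of 1.61% over all CCAT regions. Of these 42, 40 lay in groups of 3 or more wide far regions spaced by at most 50 kb, so neighbours weigh on this share. Near MACS peaks the share was 87.1% of 194 regions at 1200 bp and highest, 91.1% of 191, at 1250 to 1300 bp. It was lower in the classes wider than these, with 51.3% of 39 at 2000 to 2950 bp and 62.1% of 29 above.

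**Figure D1:**
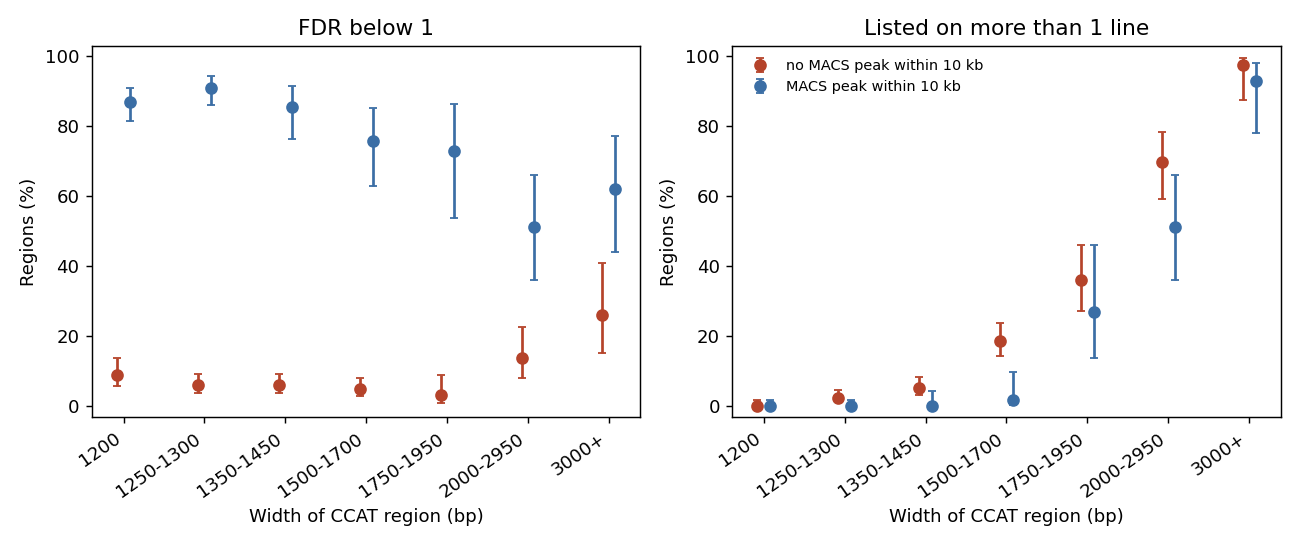
Share of CCAT regions (%) with an FDR below 1 (left) and listed on more than 1 line (right), by width class in bp, for regions with no MACS peak within 10 kb (red) and with a peak within 10 kb (blue); points are shares and bars 95% Wilson intervals. In the left panel the far regions lie between 3.19% and 26.2% and the near regions between 51.3% and 91.1%, a separation that the distance rule brings with it, whereas in the right panel both rise with width to 97.6% and 93.1%.

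The 3 wide far regions with an FDR of 0.005, the lowest in the list, all stood at the very end of a chromosome. On chromosome 2 the region at 181746901 to 181748500 ran past the mm9 end by 413 bp. The region at 152536551 to 152537850 on chromosome 5 did so by 591 bp. On chromosome 11 the overhang of the region at 121843101 to 121844450 was 594 bp, so part of each lies on no mm9 sequence. No other region of the list on chromosomes 1 to 19 ran past the mm9 end. Only this end was checked, so other regions may include bases without sequence elsewhere. Without them no wide far region had an FDR of at most 5%.

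The next 4 regions by FDR were on chromosomes 7, 1, 6 and 9. That on chromosome 7 (67017251 to 67027500) was 10250 bp wide and had an FDR of 0.115. An FDR of 0.159 was given to a region of 3600 bp on chromosome 1 (85279051 to 85282650). The same rate was given to a region of 4950 bp on chromosome 6 (47691251 to 47696200), and also to a region of only 1200 bp on chromosome 9 (8751751 to 8752950). The first 3 of these lay in groups of wide far regions, and the last stood alone, 58.2 kb from the nearest MACS peak. An FDR of 0.260 was given to chromosome 8 (124473301 to 124474650), which was 1350 bp wide.

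At an FDR of 0.282 stood 5 regions. Lone regions at this rate were found on chromosome 1 (62337001 to 62338200), chromosome 4 (100977101 to 100978300) and, further, chromosome 5 (124170451 to 124171650). The remaining pair belonged to neighbouring groups of chromosome 8 (19784151 to 19785550 and 20019401 to 20021000). A further 6 had an FDR of 0.298. Of these, 2 were in the group on chromosome 6 (47696501 to 47700950 and 47706951 to 47709000). The other 4 were spread over chromosome 1 (65086651 to 65088150), chromosome 5 (31503851 to 31505300), chromosome 7 (89919551 to 89920950) and, last, chromosome 17 (34167351 to 34168650). The remaining 75 regions with an FDR below 1 had values of 0.531 (11 regions, the first by position on chromosome 2 at 25090651 to 25091850), 0.533 (22) and 0.689 (42). The lower rates thus came from lone regions little wider than 1200 bp and from regions in groups. Some of the grouped ones were very wide, whereas those on chromosome 8 at 0.282 were 1400 and 1600 bp wide.

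CCAT listed some positions on more than 1 line, and the wide far regions held most of these. Of 264 such positions on chromosomes 1 to 19, 209 were wide far regions (79.2%) and the other 55 were wide regions near a MACS peak. None of the positions was narrower than 1250 bp. Wide far regions were 1300 of the 1916 wide regions, so the size of the set weighs on the 79.2%. Among the 1300 the share on more than 1 line was 16.1% (14.2 to 18.2%), against 8.93% (6.92 to 11.4%) of the 616 wide near regions. Over all CCAT regions it was 0.505%. The number of lines followed width: the median was 1350 bp for the 1091 regions on 1 line, 1850 bp for the 182 on 2 lines and 3800 bp for the 27 on 3 or more. At 3000 bp or more 41 of 42 far regions and 27 of 29 near regions were repeated, and at 1500 to 1700 bp 50 of 267 and 1 of 54. The lines of 17 of the 209 carried more than 1 FDR. Why a position is listed several times is not given in the sources used here.

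Many of the wide far regions lay close together. Regions spaced by at most 50 kb were joined, which gave 32 groups of 3 or more with 248 regions (19.1%, 17.0 to 21.3%), 65 pairs, and 922 regions that stood alone. The 32 groups were on 13 chromosomes, and the 6 largest held 117 regions. The median width of grouped regions was 1650 bp, where pairs had 1400 bp and lone regions 1350 bp. Of the 42 regions of 3000 bp or more, 40 were in groups. An FDR below 1 was found for 29 of the 248 grouped regions (11.7%, 8.27 to 16.3%), beside a background of 1.61% over all CCAT regions. It was found for 62 of the 922 lone ones (6.72%, 5.28 to 8.53%). In pairs it was found for 3 of 130 (2.31%, 0.788 to 6.57%), the lowest share of the 3. More than 1 line was found for 88 of the grouped (35.5%, 29.8 to 41.6%) and 106 of the lone regions (11.5%, 9.60 to 13.7%). Over all CCAT regions the share was 0.505%. For pairs it was 15 of 130 (11.5%, 7.12 to 18.2%). The number of lines followed width, and 36.7% of grouped regions reached 2000 bp, against 3.04% of lone ones. Neighbours in a group depend on each other, so comparing these intervals is no test. The part of width was not tested.

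Chromosome 1 held 5 of the groups, with 93 regions. The largest group, between 85118651 and 85343650, had 28 regions of 1200 to 5000 bp, which covered 26.7% of its 225 kb. With 34 other CCAT regions, 43.8% of the span was covered. A group of 12 regions lay just before it (84956201 to 85060900), across a gap of 57.8 kb. The gap held 12 further wide CCAT regions, all left out because 2 weak MACS peaks lay within 10 kb, with scores of 76.74 and 79.15 where the list begins at 70.03. The MACS score is the negative log10 of a peak's p-value, times 10. The distance rule therefore divides a stretch of closely spaced wide CCAT regions at this locus.

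A group of 25 regions followed on chromosome 1 (87350301 to 87553350), with widths up to 2800 bp and 46.3% of its span under CCAT regions. It also enclosed a weak MACS peak, with a score of 77.64. The group of 21 at 90119351 to 90206650 was denser and had its nearest MACS peak 2428 kb away. There the regions had a median width of 2700 bp, 15 reached 2000 bp, and 60.9% of 87.3 kb was covered. Of the 21, 5 had an FDR below 1, none under 0.689, beside a background of 1.61% over all CCAT regions. Listed on more than 1 line were 12 of the 21, beside 0.505% over all CCAT regions. A group of 7 (172993551 to 173014100) covered 70.3% of 20.6 kb, and each of its regions had an FDR of 1.

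The other groups of the largest 6 were on chromosomes 4 and 8. On chromosome 4, 16 regions were spread over 276.9 kb (146572601 to 146849450) and covered 9.36% of it. The nearest MACS peak was 452 kb away. On chromosome 8, 15 regions between 19854501 and 20027650 had a median width of 2350 bp and lay on both sides of a strong MACS peak with a score of 1676.27. A group of 9 regions lay 69.0 kb before it (19697951 to 19785550) and enclosed 2 MACS peaks, with scores of 97.99 and 193.09. These locus descriptions show dense and loose groups alike, some around MACS peaks and some far from any.

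**Figure D2:**
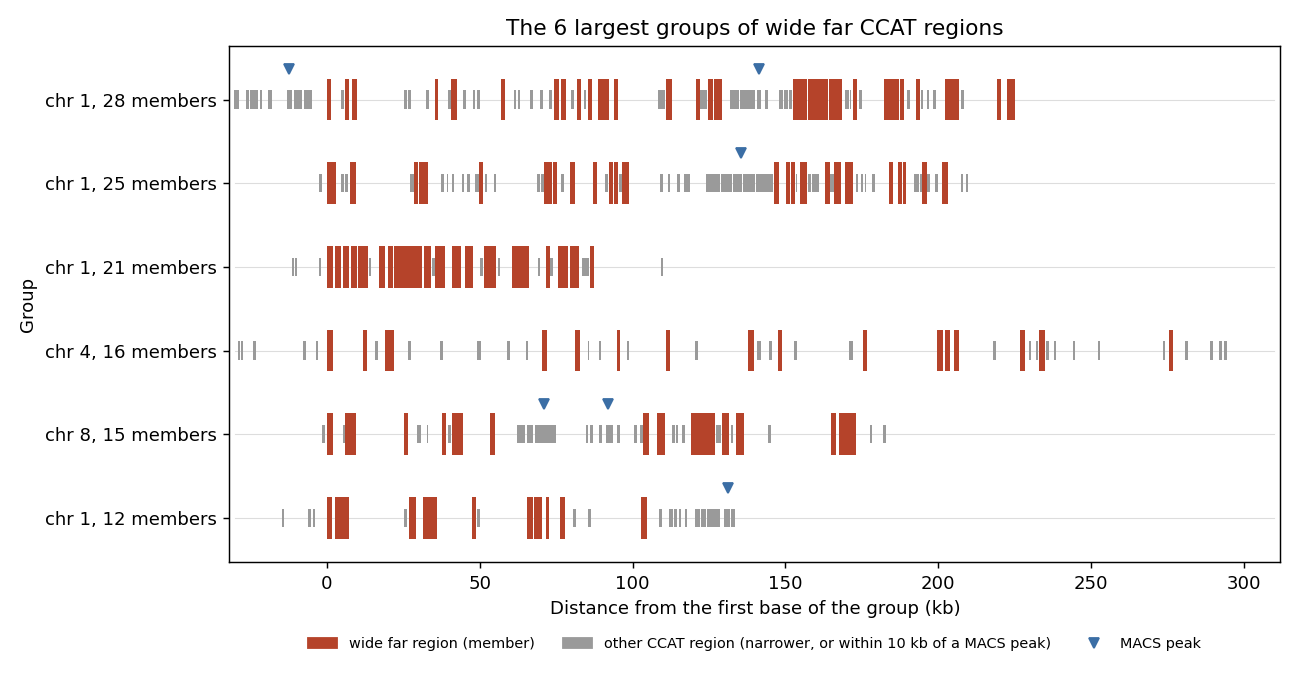
The 6 largest groups of wide far CCAT regions, drawn to scale as distance in kb from the first base of each group; red bars are the wide far regions, grey bars other CCAT regions up to 30 kb beyond the group, and blue triangles MACS peaks. The group of 21 on chromosome 1 is densely filled (60.9% of its span), the group of 16 on chromosome 4 is sparse (9.36%), and MACS peaks lie inside the groups of 28, 25 and 15.

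Some compact groups were covered for the most part by wide far regions. On chromosome 7, 7 regions covered 93.6% of 40.4 kb (67002001 to 67042400), 3999 kb from the nearest MACS peak, and included regions of 11450, 10250 and 7050 bp with FDRs of 1, 0.115 and 1. On chromosome 6, 5 regions covered 91.3% of 18.9 kb (47602851 to 47621800), and 66.2 kb further on 8 regions covered 77.6% of 35.7 kb (47687951 to 47723650). Of those 8 regions, each at least 2050 bp wide, 4 had an FDR below 1, beside a background of 1.61% over all CCAT regions. On chromosome 12, 4 regions covered 95.6% of 7.95 kb (20232051 to 20240000), all with an FDR of 1. On chromosome 8, 3 regions covered 92.2% of 9.65 kb (57989851 to 57999500), 12.3 kb from a MACS peak. On chromosome 10, 3 regions covered 91.6% of 5.95 kb (7229051 to 7235000). In these 6 groups the median gap from a region to the nearest other was 50 to 750 bp.

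The widest of the wide far regions was on chromosome 9 (2999451 to 3039150). It spanned 39700 bp, 3.47 times the width of the next, was listed on 30 lines, carried an FDR of 0.689 and was the first CCAT region of its chromosome. Mouse chromosomes have their centromere at the end from which positions are counted, and centromeric DNA is made of satellite repeats. Whether this region holds such repeats was not tested. The 9 regions that followed in width were 3 on chromosome 7 (67005651 to 67017100, 67017251 to 67027500 and 67035351 to 67042400), 2 on chromosome 6 (47710251 to 47715400 and 47691251 to 47696200), 2 on chromosome 8 (20021901 to 20027650 and 19703301 to 19708250), and 1 each on chromosome 18 (3114951 to 3120850) and chromosome 1 (85300951 to 85305950). They were 4950 to 11450 bp wide, each was listed on 2 to 7 lines, and all 9 were in groups. Of the 10 widest, 6 had an FDR of 1.

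The stretches next to the first and last CCAT positions held some but not most of the wide far regions. Within 3 Mb of the first or last CCAT position lay 85 of the 1300 (6.54%, 5.32 to 8.01%), against 5.59% (5.39 to 5.80%) of the narrower far regions. The last CCAT position lay 0.0134 Mb before the mm9 end on chromosome 1, but 17.9 Mb on chromosome 14 and 14.1 Mb on chromosome 17. Where the list stops this early the window is not at the chromosome end, so these are not shares at chromosome ends. Within 200 kb of the first CCAT position there were 19 regions on 8 chromosomes, among them 3 groups. Chromosome 17 had a group of 5 there (3004201 to 3030600). Groups of 4 opened chromosome 4 (3102501 to 3164300) and chromosome 18 (3040201 to 3120850).

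Beyond the minimum of 10 kb, the distance to the nearest MACS peak ran from 10.3 kb to 11.6 Mb. The median was 727 kb, with an interquartile range of 216 to 1775 kb, against a median of 994 kb for the narrower far regions. A peak lay within 50 kb of 110 regions (8.46%), and none within 1 Mb of 519 (39.9%). The regions just beyond the limit stood at 10271 bp for chromosome 6 (54720251 to 54721550), 10527 bp for chromosome 1 (87496451 to 87498100) and 10622 bp for chromosome 17 (56258901 to 56260400). The wide regions just inside it lay at 9318, 8849 and 8720 bp. The most distant was on chromosome 12 (118393751 to 118395150), 11.6 Mb from a peak, followed by 2 regions on chromosome 18 (17509951 to 17511300 and 23801351 to 23802550) at 10.5 and 9.90 Mb.

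Grouped regions were closer to MACS peaks than lone ones, with a median of 106 kb against 851 kb. This mixes loci of separate kinds: 15 of the 32 groups had a MACS peak within 100 kb of a member, and 17 had none. When the distance was taken to MACS peaks with a score of at least 100 alone, 1406 wide regions were far. Of these, 10.4% had an FDR below 1, beside 7.23% under the reported rule and a background of 1.61% over all CCAT regions. By construction this set adds wide regions within 10 kb of weaker MACS peaks from the same libraries, so nothing is read from the difference.

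**Figure D3:**
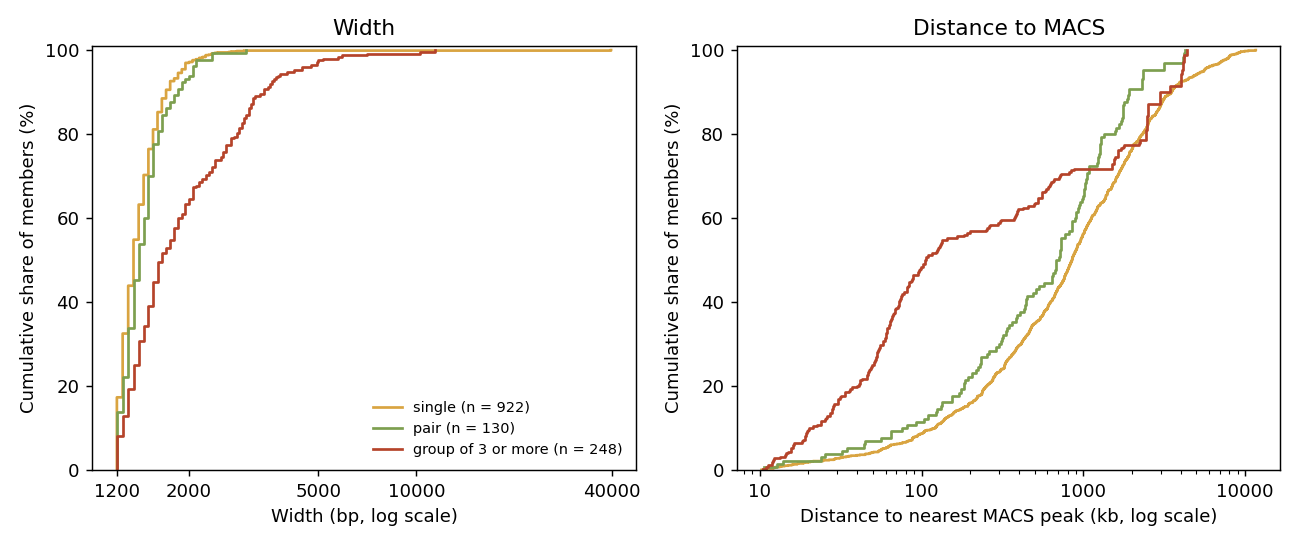
Cumulative share (%) of wide far regions against width in bp (left) and distance to the nearest MACS peak in kb (right), both on log scales, for 922 lone (single) regions, 130 regions in pairs and 248 in groups of 3 or more. The curve of grouped regions lies to the right for width (median 1650 bp against 1350 bp alone) and to the left for distance (106 kb against 851 kb).

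Other CCAT regions of any width were frequent near the wide far regions. Another CCAT region lay within 10 kb of 824 of the 1300 (63.4%, 60.7 to 66.0%), against 43.8% (43.4 to 44.3%) of the narrower far regions and 59.4% (55.5 to 63.2%) of the wide near regions. Within 1 kb the shares were 21.7% (19.5 to 24.01%), 6.57% (6.35 to 6.79%) and 21.1% (18.1 to 24.5%). The wide far and wide near regions thus had overlapping intervals at both distances. Of the 922 lone regions, 51.6% (48.4 to 54.8%) had a CCAT region within 10 kb and 9.002% (7.32 to 11.02%) within 1 kb.

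The regions were spread unevenly over chromosomes. Per Mb between the first and last CCAT position, there were 0.553 over all 19 chromosomes, from 0.266 on chromosome 18 (20 regions) to 0.985 on chromosome 17 (77 regions). Chromosome 1 followed with 0.896 (174 regions) and chromosome 8 with 0.879 (113 regions). As a share of the CCAT regions on the chromosome, they made up 4.56% (3.94 to 5.27%) on chromosome 1, 3.83% (3.20 to 4.59%) on chromosome 8 and 3.66% (2.94 to 4.55%) on chromosome 17, against 1.34% (0.867 to 2.05%) on chromosome 18. The order depended on the settings. Chromosome 1 was densest at a minimum width of 1500 bp (19.2% of regions), with every deposited line kept (14.6%) and with only MACS peaks scoring at least 100 (14.4%), and chromosome 11 at a minimum width of 1000 bp (7.45%). When groups of 3 or more were left out, chromosome 1 had 81 regions (0.417 per Mb) and chromosome 11, which had no group, was highest with 94 regions (0.791 per Mb), followed by chromosome 17 with 58 (0.742 per Mb). On chromosomes 13 to 19 the CCAT list ended 0.984 to 17.9 Mb before the mm9 end, so the last part of these chromosomes could hold no member.

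**Figure D4:**
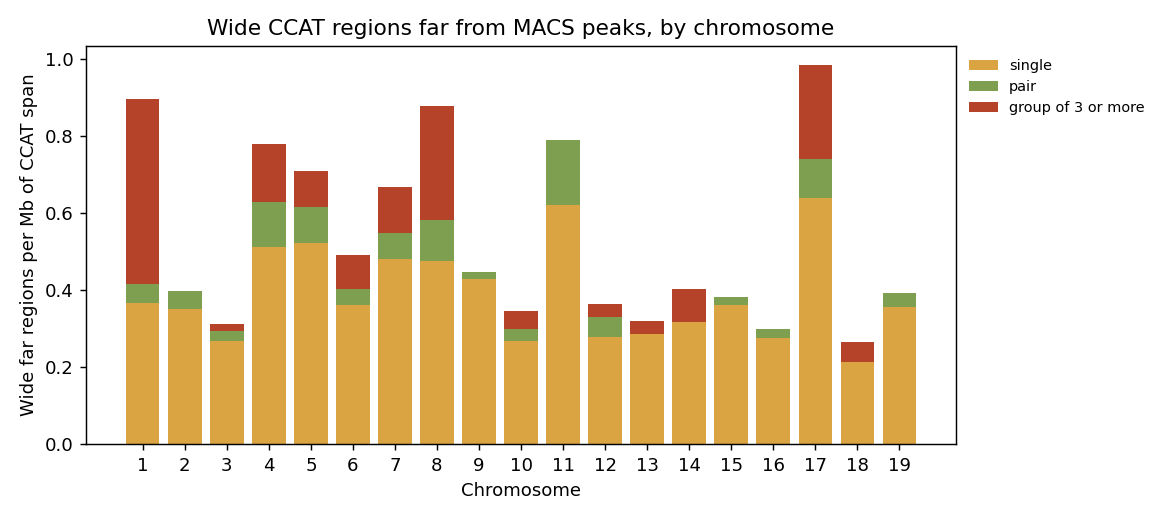
Wide far CCAT regions per Mb of the span between the first and last CCAT position of each chromosome, stacked as lone (single) regions, pairs and groups of 3 or more. Chromosome 17 is highest at 0.985 per Mb and chromosome 18 lowest at 0.266 under the rule as given, though chromosome 1 or 11 is highest under other settings, and groups make up 93 of the 174 regions of chromosome 1.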

How the data were processed

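Per the submitters' processing notes, BWA, MACS 1.4.1 and mm9 were used. The settings of the callers and CCAT's version are not stated in these sources. For the ChIP library the authors deposited 2 lists without headers. The deposited MACS list gives a score per peak, which in that caller's format is the negative log10 of a p-value, times 10. The deposited CCAT list gives 1 value per region, from 0.005 to 1 at 14 levels; the range led to its reading as a q-value (FDR). The depth is unknown, so no limit based on reads can be given.

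Starts were moved to count from base 1. A CCAT position on several lines counted once, with the FDR of its first line. Distances were edge to edge. Mm9 lengths came from GenomeInfoDb 1.38.1. Shares have 95% Wilson intervals. No test was run, because each group has 1 library and the FDR comes from the contrast that chose the regions. Named were the 20 lowest FDRs, the 10 widest regions, the 3 nearest to and 3 farthest from a MACS peak and the 6 largest groups; the compact groups, the groups at chromosome starts and the other groups on chromosomes 1 and 8 were named after their values were seen. The regions, the rule for naming and the alternatives were chosen with earlier results of these data known. Planned descriptions of sequence and of genes were not run, for want of mm9 references. The code was tested on simulated data, where it found 134 of 134 planted regions. Analyses ran in Python 3.11.15 with scipy 1.17.1, pandas 2.3.3, matplotlib 3.10.9 and numpy 2.4.6.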

Additional observations from a re-analysis of the deposited data

Results flagged for a closer look

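The rule leaves out the sex chromosomes, yet the same width and distance were met by CCAT regions on chromosome X. There, 76 of 2421 regions were wide and far from MACS peaks (3.14%, 95% Wilson interval 2.52 to 3.91%), or 0.499 per Mb, with a median width of 1400 bp. An FDR below 1 was carried by 3 of them, and 10 were listed on more than 1 line. Among the 1300 wide far regions of chromosomes 1 to 19 the shares were 7.23% and 16.1%. Over all CCAT regions of those chromosomes they were 1.61% and 0.505%. The same shares over all regions of chromosome X are not given here. The 76 regions were singled out because they lie outside the comparisons above. Like the others, their FDR comes from the ChIP set against the whole cell extract, and it was 1 for all but these 3.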

How the results depend on the processing

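Under 9 other settings listed at the outset and 2 chosen after seeing the data, 55 of 88 values stayed within the interval of the reported one, or within 1.5 times for the number of regions, and 33 did not. The minimum width moved most values. A distance of 5 kb, which gave 1322 regions, moved none. Leaving out regions within 3 Mb of the first or last CCAT position, or those past the mm9 end, also moved none. Taking the lowest FDR of each position was bound to move none, because no wide far region had a lower FDR on a later line. The values of that setting count among the 55 and say nothing about stability. A minimum width of 1000 bp gave 6202 regions with a median width of 1050 bp, an FDR below 1 in 2.79%, a CCAT region within 10 kb in 53.5%, another wide far region within 50 kb in 41.1% (29.1% as reported), a median distance to MACS of 835 kb, and chromosome 11 as the densest with 7.45% of regions (chromosome 17 with 5.92% as reported). A minimum width of 1500 bp gave 489 regions, 1700 bp, 73.0%, 37.2%, 637 kb and chromosome 1 with 19.2%, in the same order without the FDR. A distance of 50 kb gave 25.5% with another wide far region within 50 kb and a median distance of 838 kb. With every line kept, the median width was 1450 bp, 66.9% had a CCAT region within 10 kb and 33.2% a wide far region within 50 kb. In that setting 8.16% lay within 3 Mb of the first or last CCAT position, and chromosome 1 was densest with 14.6%. Merging within 500 bp gave 1951 regions of 1550 bp at the median, of which 4.87% had an FDR below 1, 58.3% a CCAT region within 10 kb and 26.2% a wide far region within 50 kb. With MACS peaks scoring at least 100, 10.4% had an FDR below 1 (7.23% as reported). The median distance was then 1118 kb and chromosome 1 was densest with 14.4%. Without the groups, chosen after seeing the data, the values were 55.0% with a CCAT region within 10 kb, 12.4% with a wide far region within 50 kb, 829.6 kb to MACS, chromosome 11 with 8.94%, and 11.5% on more than 1 line. For the moved values the cause was not tested beyond what each setting changes by construction. Leaving out regions within 3 Mb of the first or last CCAT position gives no value for the share there. No library could be left out. No paired analysis was possible because there is only 1 ChIP and 1 extract library. The depth is unknown, so which regions it limits was not tested.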
